A study of Mus musculus with 8 samples.

Results

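Polycomb repressive complex 2 (PRC2) genes are described here by the Chd7 and Chd8 binding sites at their loci in oligodendrocyte lineage cells. The 10 genes were chosen by name: Ezh1, Ezh2, Eed, Suz12, Mtf2, Phf1, Phf19, Jarid2, Rbbp4 and Rbbp7. All 10 matched the 21887 protein-coding genes of the annotation by symbol, and none was chosen for its binding. The cells carried the O4 surface antigen, a marker of the oligodendrocyte lineage, and were collected magnetically from brain (cortex and corpus callosum) of wild-type mice at postnatal day 7. Chromatin was immunoprecipitated with an anti-Chd7 antibody (2 libraries), an anti-Chd8 antibody (1 library) or, for the mock controls, rabbit IgG (2 libraries), and 3 libraries of input chromatin had no antibody. The labels call the cells OPCs (oligodendrocyte precursor cells), no treatment was given, and all 8 libraries share the genotype, age and tissue. With 1 Chd8 library, and with peak lists in place of counts, no comparison carries a test, and every count is a description of these libraries.

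PRC2 is a histone methyltransferase that places methyl groups on lysine 27 of histone H3, a mark of silenced genes. Ezh1 and Ezh2 are alternative catalytic subunits, and Eed, Suz12 and the histone-binding proteins Rbbp4 or Rbbp7 complete the core. Mtf2, Phf1 and Phf19 are Polycomb-like proteins that bring the core to unmethylated CpG-rich DNA, and Jarid2 is an accessory protein of another PRC2 subtype. In oligodendrocyte precursors, PRC2 is known for restraining the genes of other lineages. Chd7 and Chd8 belong to the CHD proteins, which use ATP to move nucleosomes, and the binding described below is that of the remodelers at the genes of PRC2, not the binding of PRC2 itself.

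At a gene end, meaning either boundary of a gene within 1 kb, 9 of the 10 PRC2 genes had a Chd8 peak and 3 had a reproducible Chd7 region. Over all protein-coding genes the shares were 41.0% for Chd8 and 4.83% for Chd7. A reproducible Chd7 region is the joined span of a replicate 1 and a replicate 2 peak that overlap by at least 1 bp. The Chd7 genes were Ezh2, Mtf2 and Rbbp4, and each of these also had the Chd8 peak, against 4.77% of all genes with both. Ezh1 was the only member without a ChIP peak anywhere at its locus, which is the gene body plus 10 kb to the left and right. The mock lists held a peak at 0 of the 10 ends (0.0183% and 0.0137% of all genes in mocks 1 and 2). The input lists held peaks at the ends of 5, 6 and 8 members in inputs 1, 2 and 3, where all genes gave 21.9%, 28.4% and 45.2%. Input peaks lay anywhere at the loci of 9, 10 and 9 members (70.0%, 81.9% and 77.9% of all genes). Of the 37 ChIP peaks at the 10 loci, 28 touched an input peak and 3 touched a mock peak, against 48.6% and 0.614% of all peaks in the 3 ChIP lists. A site listed by several libraries counts once in each, and the 3 mock-touching peaks are the same site in the Jarid2 body. The overlap with input is therefore given beside each site below. The part of input signal in these peaks was not tested.

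The promoter sequences of 6 members are printed because they show the range of the binding: Mtf2 (the highest Chd8 fold of the group), Ezh2 and Rbbp4 (Chd7 in both replicates), Suz12 (Chd7 in replicate 1), Jarid2 (Chd8 at a start with no input peak) and Ezh1 (no ChIP peak). They run 5′ to 3′ along the gene from 250 bases before the annotated start through its first 50 bases, from RefSeq on GRCm38.p6. That assembly has the coordinates of mm10, the build of the peaks. Capitals mark matches, on either strand, to letters of the E2F site (TTTGGCGC, TTTCGCGC or GGCGGGAA), the NFY box (CCAAT) and the NRF1 site (GCGCANGCG). The windows are chr5:108065424-108065723 (plus strand) for Mtf2, chr6:47594981-47595280 (minus) for Ezh2, chr4:129335321-129335620 (minus) for Rbbp4, chr11:79992856-79993155 (plus) for Suz12, chr13:44730524-44730823 (plus) for Jarid2 and chr11:101226414-101226713 (minus) for Ezh1.
Mtf2: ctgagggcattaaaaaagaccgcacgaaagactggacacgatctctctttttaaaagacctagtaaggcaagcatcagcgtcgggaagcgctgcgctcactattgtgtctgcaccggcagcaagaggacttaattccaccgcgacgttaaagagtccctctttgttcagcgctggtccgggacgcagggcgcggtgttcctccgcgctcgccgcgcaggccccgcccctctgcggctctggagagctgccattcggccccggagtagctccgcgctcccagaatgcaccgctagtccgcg
Ezh2: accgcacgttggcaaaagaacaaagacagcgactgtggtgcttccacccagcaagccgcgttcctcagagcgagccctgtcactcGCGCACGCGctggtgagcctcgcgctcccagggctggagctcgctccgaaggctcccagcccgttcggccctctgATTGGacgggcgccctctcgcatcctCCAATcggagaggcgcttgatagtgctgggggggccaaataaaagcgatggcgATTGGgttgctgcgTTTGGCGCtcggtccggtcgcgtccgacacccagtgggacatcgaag
Rbbp4: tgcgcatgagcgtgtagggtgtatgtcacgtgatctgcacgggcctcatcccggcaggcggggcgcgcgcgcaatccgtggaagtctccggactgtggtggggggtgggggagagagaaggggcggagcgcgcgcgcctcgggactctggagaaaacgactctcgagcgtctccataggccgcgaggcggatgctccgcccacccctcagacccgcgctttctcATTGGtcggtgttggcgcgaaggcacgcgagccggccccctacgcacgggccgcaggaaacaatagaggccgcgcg
Suz12: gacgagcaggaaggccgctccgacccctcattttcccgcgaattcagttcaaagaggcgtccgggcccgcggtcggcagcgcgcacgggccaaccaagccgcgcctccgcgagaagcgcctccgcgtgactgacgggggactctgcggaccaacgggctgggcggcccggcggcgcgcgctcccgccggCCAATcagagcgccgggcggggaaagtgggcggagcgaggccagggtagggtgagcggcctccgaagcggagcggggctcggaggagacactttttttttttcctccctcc
Jarid2: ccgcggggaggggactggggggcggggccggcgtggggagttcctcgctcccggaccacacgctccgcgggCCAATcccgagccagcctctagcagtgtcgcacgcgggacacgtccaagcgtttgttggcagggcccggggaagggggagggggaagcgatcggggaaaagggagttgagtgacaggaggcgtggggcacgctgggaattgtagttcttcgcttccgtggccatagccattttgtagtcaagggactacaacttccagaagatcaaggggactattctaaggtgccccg
Ezh1: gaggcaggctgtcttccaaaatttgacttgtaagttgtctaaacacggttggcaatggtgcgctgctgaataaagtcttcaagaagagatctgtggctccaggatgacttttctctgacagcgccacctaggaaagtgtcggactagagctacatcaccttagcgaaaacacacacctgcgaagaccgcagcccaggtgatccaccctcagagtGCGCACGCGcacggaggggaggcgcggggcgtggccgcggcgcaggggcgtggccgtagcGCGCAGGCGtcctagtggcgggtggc

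At the first annotated start, all 10 members had more CG dinucleotides than the median promoter. The count of CG in the 300-base window there lay between 17 (Eed) and 41 (Suz12), with a median of 30.5. The median was 13.0 over 21263 protein-coding promoters, which include further starts of a gene. The window of the second Mtf2 start held 2. Promoters that touched a Chd8 peak had a median of 22.0 and the others one of 6.00. Among the 7372 genes with a promoter in the members' range of 17 to 41, a range set after the data were seen, 72.1% had a Chd8 peak within 1 kb of a start and 10.2% had a reproducible Chd7 region. These shares stand against 43.6% and 5.23% of the 17492 genes with any promoter. The member counts of 9 and 3 are the same at starts as at ends. The Chd8 share of 90.0% is thus nearer to that of genes in this CG range than to that of all genes. For Chd7, the members' share of 30.0% stands against 10.2% in the range. No closer match on CG was made. Inputs 1, 2 and 3 had peaks within 1 kb of a start in 34.4%, 42.0% and 69.1% of the genes in this CG range. Of the genes with any promoter, 20.3%, 25.1% and 43.5% did.

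The letters of known factor sites were searched on both strands of these windows at the first start, each motif on its own and with overlaps allowed. The NFY box lay in 6 of the 10 members (38.2% of all promoters, 43.1% of those touching Chd8) and the NRF1 letters in 4, namely Ezh1, Ezh2, Phf1 and Rbbp7 (8.58% of all, 17.6% of those touching Chd8). GC-box letters (GGGCGG) lay in 7 members (46.2% of all promoters, 66.3% of those touching Chd8). Ezh2, a textbook E2F target, held the only E2F match of the group, 3 bases downstream of the start, where 3.84% of all promoters and 6.52% of those touching Chd8 have one. Its promoter also held 3 NFY boxes, at 90, 64 and 11 bases upstream. The ETS letters (CCGGAAG, 11.6% of all promoters, 23.5% of those touching Chd8) and the TATA letters (TATAAA, 12.6% and 5.81%) lay in no first-start window. The E-box CACGTG lay only in Rbbp4, YY1 letters (AANATGGCG) only in Phf19, and SOX letters (ACAAAG or ACAATG) in Ezh2 and Mtf2, where 7.84%, 3.12% and 25.7% of all promoters have them. Of the promoters touching Chd8, 10.6%, 7.27% and 18.2% do. A match is a stretch of letters and was not tested as a site.

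**Figure D1:**
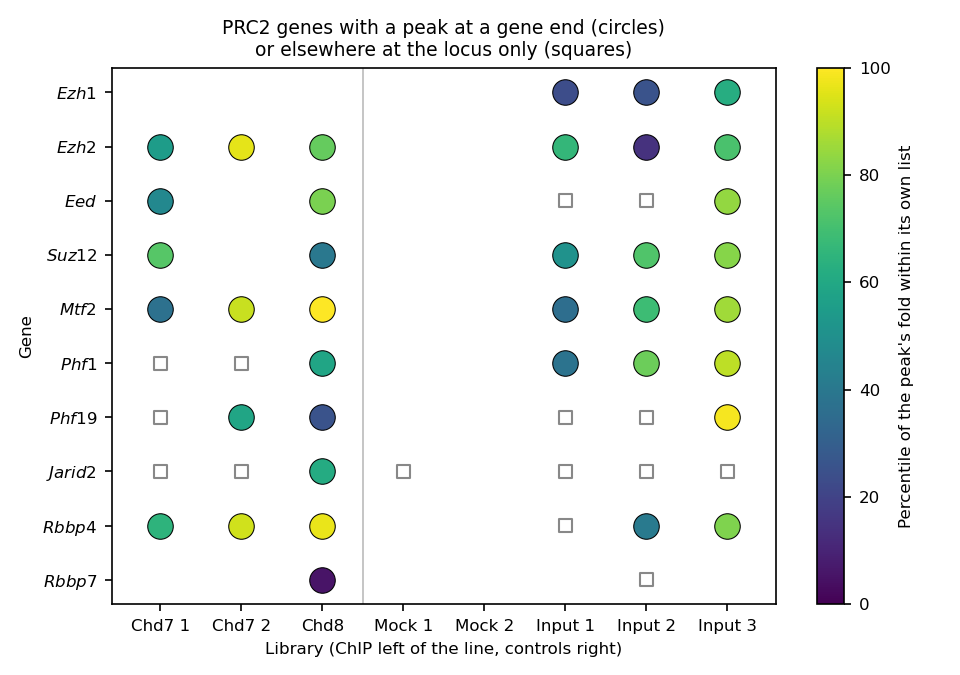
PRC2 genes (rows) by library (columns), with ChIP libraries left of the line and mock and input libraries right of it. A circle marks a peak at a gene end, coloured by the percentile of its fold within its own list, a square marks a peak elsewhere at the locus only, and 9 of 10 genes have a Chd8 circle.

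Each peak is described by its fold over the background, as the authors' caller gave it, and by the percentile of that fold within its own list. Folds have a different floor in each list (4.15 and 3.03 in Chd7 replicates 1 and 2, 3.81 in Chd8), so only percentiles are set side by side across libraries. The mean Chd7 fold given for a reproducible region averages both replicates despite their different floors. Over the 9 members with a Chd8 peak at an end, the highest fold at that end had a median of 4.71 and a range of 3.81 to 12.5. Over all 8966 such genes the median was 4.85. As a group, the members were thus near the middle of the genes with a Chd8 peak at an end, with Mtf2 and Rbbp4 near the top.

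**Figure D2:**
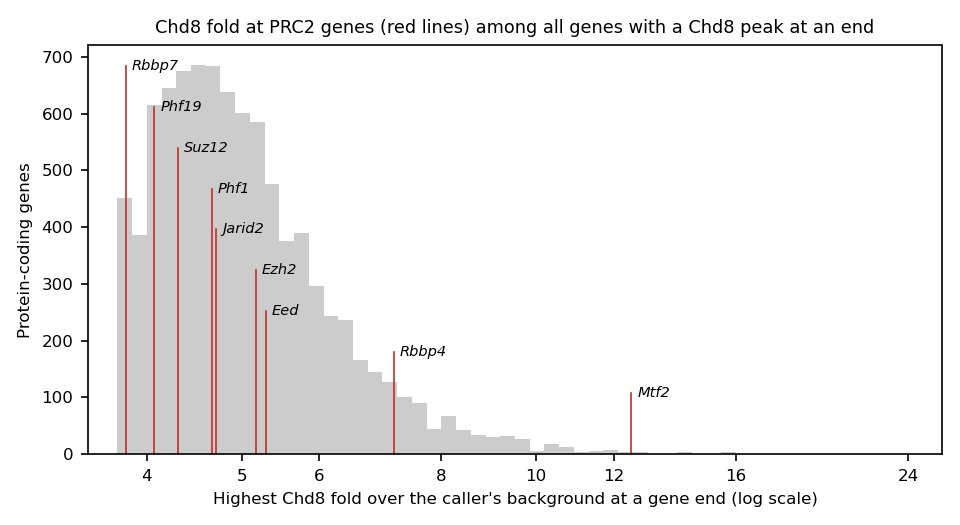
Highest Chd8 fold at a gene end (log axis) over 8966 protein-coding genes (grey histogram, counts on the y axis), with red lines at the 9 PRC2 genes that have one. Mtf2 lies at 12.5, Rbbp4 at 7.15 and the other 7 between 3.81 and 5.29.

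The catalytic subunits differed at their starts. Ezh2 is the methyltransferase of dividing cells, and its start carried peaks of all 3 ChIP libraries. They lay at chr6:47594999-47595234 in Chd7 replicate 1 (fold 4.67, percentile 54.8), at chr6:47594989-47595180 in Chd7 replicate 2 (4.28, percentile 95.8) and at chr6:47595022-47595528 in Chd8 (5.17, percentile 76.5). Both Chd7 peaks were centred 86 and 54 bp upstream of the start and reached just past it, while the Chd8 peak was centred 245 bp upstream. Of the 300 promoter bases printed above, 236, 192 and 259 were covered by Chd7 replicate 1, Chd7 replicate 2 and Chd8. All 3 inputs had a peak at the same place, with folds of 3.93, 3.28 and 3.66. The mean fold of the Ezh2 region over both Chd7 libraries was 4.48, rank 265 of the 1383 reproducible regions. The start of the lncRNA gene F830010H11Rik lies 61 bp inside the annotated boundary of Ezh2 on the opposite strand, so the peaks cannot be given to Ezh2 alone.

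Ezh1, the alternative methyltransferase that is known from resting and differentiated cells, had no ChIP peak in its 35.3-kb body or within 10 kb of it. Only the inputs had peaks within 1 kb of its start at chr11:101226463, at folds of 3.52 and 3.59 in input 1, 3.40 in input 2 and 3.58 in input 3. None of these reached the promoter window printed above, which held 23 CG dinucleotides, within the range of the bound members. A peak list shows what passed the authors' threshold, so binding below it at Ezh1 was not detectable here.

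The core partners Eed and Suz12 each carried a Chd7 replicate 1 peak that replicate 2 did not list. Eed, which reads trimethylated lysine 27, had the widest Chd8 peak of the group. That peak spanned 1727 bp at chr7:89980020-89981746, wider than 99.2% of the Chd8 list, with a fold of 5.29 (percentile 79.8). It was centred 93 bp downstream of the start. Its Chd7 replicate 1 peak (chr7:89980419-89980812, fold 4.56, percentile 46.7) lay within the Chd8 peak, 360 bp downstream of the start, and outside the promoter window. Input 3 had a peak at the Eed start (3.82) and inputs 1 and 2 had none within 1 kb.

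Suz12, the scaffold of the core, had nearly the same span in both antibodies. The Chd7 replicate 1 peak lay at chr11:79992819-79993289 (fold 5.00, percentile 73.6) and the Chd8 peak at chr11:79992688-79993287 (fold 4.30, percentile 40.2). Both covered all 300 bases of the Suz12 window above, including the NFY box 61 bases upstream of the start. Suz12 was higher in its Chd7 list than in its Chd8 list by percentile, the reverse of Mtf2 in the same replicate. Inputs 2 and 3 had peaks of nearly the same span, with folds of 3.87 and 3.79.

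**Figure D3:**
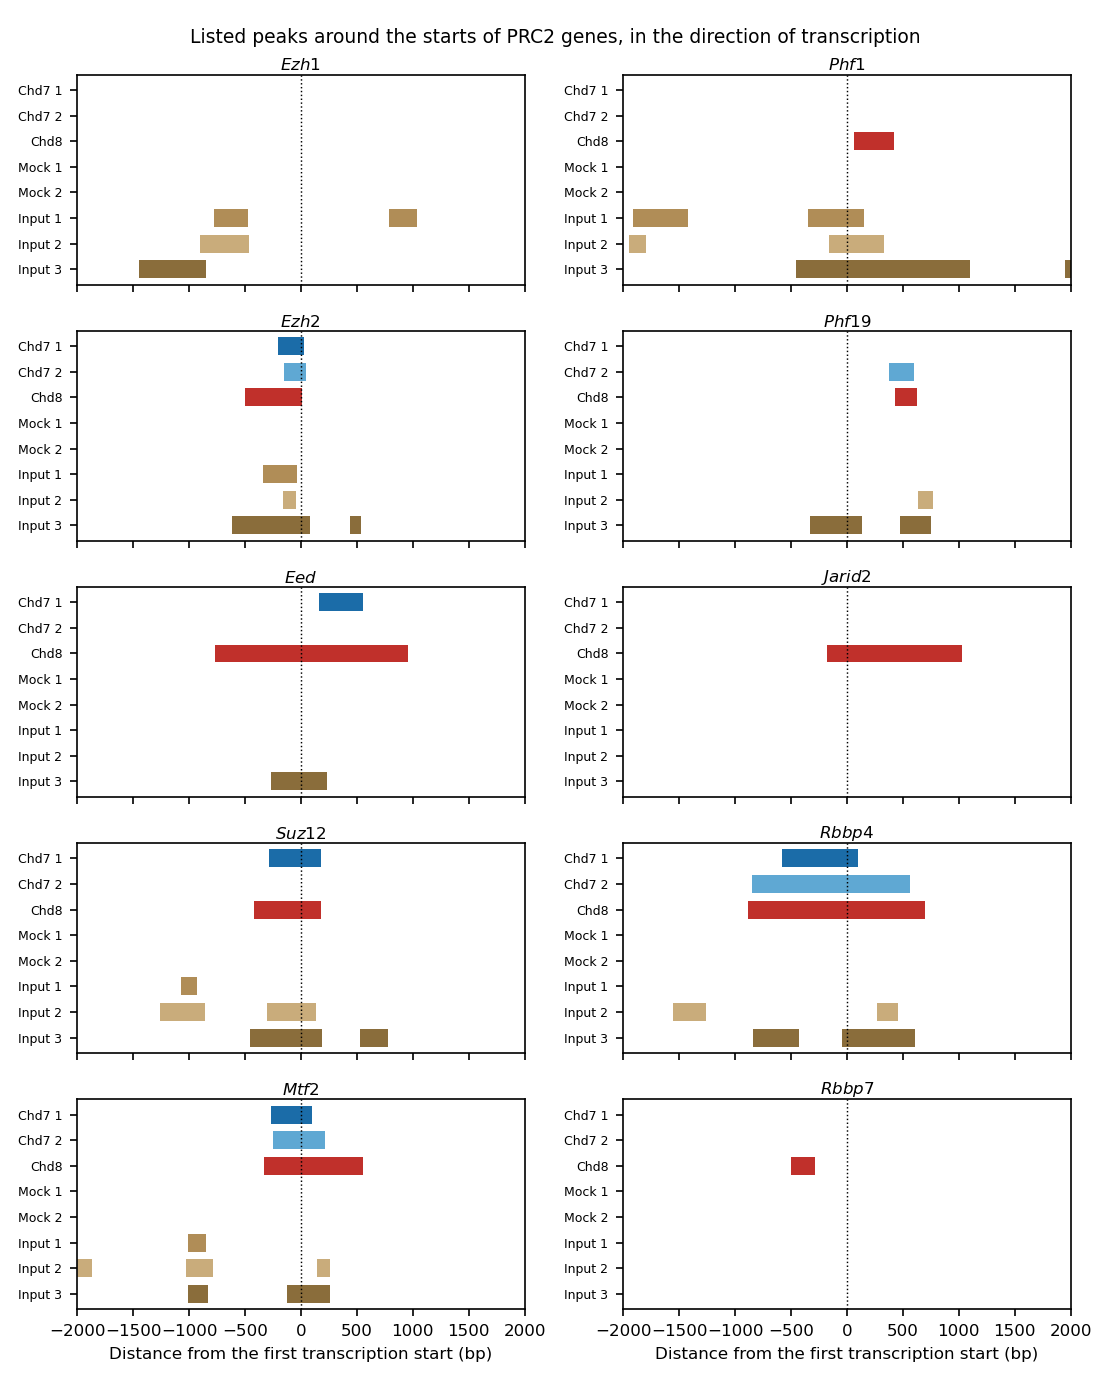
Listed peaks of each library (bars; ChIP above mock and input) within 2000 bp of the first start of each PRC2 gene, drawn along the direction of transcription. Chd7 peaks of both replicates cross the starts of Ezh2, Mtf2 and Rbbp4, the Jarid2 and Rbbp7 starts have Chd8 bars alone, and Ezh1 has input bars alone.

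Among the Polycomb-like genes, Mtf2 had the highest Chd8 fold of the group. Its Chd8 peak at chr5:108065347-108066228 had a fold of 12.51 and a −log10 q of 19.97 and ranked 37 of the 18415 listed Chd8 peaks. Only 17 of the 8966 genes with a Chd8 peak at an end (0.190%) had a fold at or above it. The Chd7 peaks at the same start were moderate in replicate 1 (chr5:108065410-108065775, fold 4.45, percentile 36.8) and high in replicate 2 (chr5:108065424-108065892, fold 4.01, percentile 91.6). The mean Chd7 fold of 4.23 ranked 545 of 1383 regions. All 3 ChIP peaks covered the whole promoter window of Mtf2, in which none of the E2F, NFY and NRF1 letters was found. Mtf2 has a second annotated start at chr5:108078165, whose window holds 2 CG dinucleotides, and no ChIP peak lay there. Inputs 2 and 3 had peaks under the Chd8 peak (3.82 and 3.86).

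Phf1 and Phf19 had their shared Chd7 and Chd8 sites away from the start. At Phf1, Chd8 had a peak 244 bp downstream of the start (chr17:26933194-26933549, fold 4.66, percentile 58.7), Chd7 had none, and all 3 inputs had a peak there (3.70, 3.94 and 3.96). The far end of Kifc5b, on the plus strand, lies within 1 kb of this Chd8 peak and 548 bp from the Phf1 boundary. The peak does not cover it. The reproducible Chd7 region counted at the Phf1 locus lay in the flank past the far end, at the start of the neighbouring gene Cuta on the minus strand (chr17:26937972-26939884). There the peaks were chr17:26939483-26939668 in Chd7 replicate 1 (5.16, percentile 79.5), chr17:26939511-26939906 in Chd7 replicate 2 (4.01, percentile 91.7) and chr17:26939001-26939860 in Chd8 (5.24, percentile 78.4). By position this site belongs to the end of Cuta rather than to that of Phf1, and all 3 inputs had a peak there.

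At Phf19 the shared site lay inside the gene body, 8.8 kb downstream of the start. It comprised chr2:34904975-34905388 in Chd7 replicate 1 (fold 5.01, percentile 74.0), chr2:34905041-34905218 in Chd7 replicate 2 (3.69, percentile 80.2) and chr2:34904818-34905578 in Chd8 (5.11, percentile 75.1). The mean Chd7 fold was 4.35, rank 392 of 1383. Input 3 alone of the inputs touched it, and with peaks of the matching inputs removed it was the only reproducible Chd7 region left at a member locus. The Phf19 start had weaker peaks, in Chd7 replicate 2 (3.41, percentile 58.6) and in Chd8 (4.07, percentile 25.6), centred 486 and 527 bp downstream. An input 3 peak (chr2:34913228-34913498, fold 3.53) overlapped both of these, and no peak of inputs 1 and 2 touched them. Upstream of them, over the promoter window itself, only input 3 had a peak, with a fold of 4.72 (percentile 98.7 of that input). Whether the body site lies in an exon or an intron was not analysed here.

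Jarid2, an accessory subunit in the Jumonji family, had 14 of the 37 ChIP peaks, and it is the longest member at 190.9 kb. Its start carried a Chd8 peak of 1209 bp (chr13:44730595-44731803, fold 4.71, percentile 61.2) over both annotated starts, with no Chd7, mock or input peak. Chd8 had 7 further peaks in the body. Those that touched no Chd7, mock or input peak lay at chr13:44733090-44733189 (fold 4.78, percentile 63.7), chr13:44733932-44734234 (4.05, percentile 23.8) and chr13:44839825-44840303 (4.55, percentile 53.9). Of all genes, 0.653% had at least the 7 Chd8 peaks that Jarid2 kept after removal of a peak shared with mock, but 4.89% did among the 2189 genes of its own length decile, where the median was 2.00.

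The highest peak in the Jarid2 body was one that the controls also had. At chr13:44869569-44869990, 138.5 kb from the nearest start, Chd8 had a fold of 9.55 (rank 116), Chd7 replicate 1 one of 7.06 (rank 61) and Chd7 replicate 2 one of 4.28 (percentile 95.8). Mock 1 had a fold of 7.23 there, its only peak at a member locus (1 of 10, against 0.151% of all genes; mock 2 had 0 of 10, against 0.142%), and the inputs had 6.00, 6.02 and 8.21, so that mock 2 was the only one of the 8 lists without it. Peaks touching a mock were removed before counting, and without that rule Jarid2 would count as a sixth member with a reproducible Chd7 region. A site 176.7 kb from the start was high in Chd8 (chr13:44907717-44908178, fold 6.32, percentile 93.0) and in Chd7 replicate 1 (6.07, percentile 96.0), with a peak in input 3 (3.40) and none in Chd7 replicate 2. Sites at 84.0 kb (Chd8 4.13, Chd7 replicate 1 5.16) and at 137.1 kb (Chd8 4.75, Chd7 replicate 2 3.63) touched no input, but each had 1 of the 2 Chd7 libraries.

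**Figure D4:**
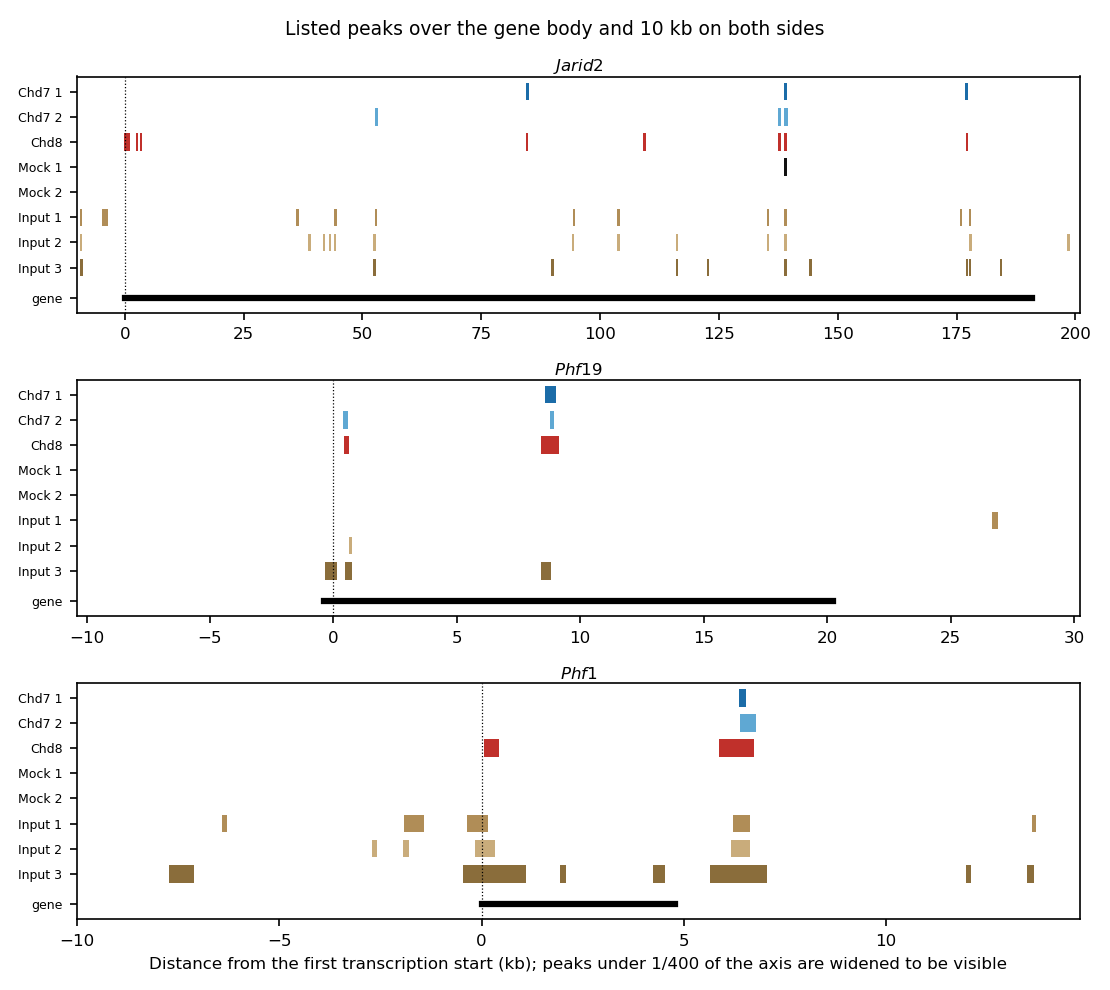
Listed peaks of each library over the bodies of Jarid2, Phf19 and Phf1 and 10 kb on both sides, in kb from the first start along the direction of transcription; the black bar is the gene. The Jarid2 site near 139.0 kb from the first start appears in 7 of the 8 lists, the Phf19 body site lies 8.8 kb from the start, and the Phf1 flank site lies past the far end.

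The histone-binding genes Rbbp4 and Rbbp7, whose proteins serve in several chromatin complexes, lay at opposite ends of the Chd8 list. Rbbp4 had wide peaks in all 3 ChIP libraries. They spanned 674 bp in Chd7 replicate 1 (chr4:129335273-129335946, fold 4.83, percentile 64.8), 1414 bp in Chd7 replicate 2 (chr4:129334810-129336223, 4.06, percentile 92.7) and 1581 bp in Chd8 (chr4:129334674-129336254, 7.15, percentile 96.6). The start of Zbtb8os lies 162 bp away on the opposite strand and all 3 peaks cover it, so the pair shares 1 bound interval. Input 3 had peaks at chr4:129334760-129335415 and chr4:129335795-129336212 (3.60 and 3.77), both within the Chd8 peak. The first of them covered the Rbbp4 start and 95 bases of its promoter window. Input 2 had a peak downstream of the start (3.54), and input 1 had none within 1 kb.

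Rbbp7, on the X chromosome, had a single Chd8 peak at chrX:162759869-162760083, centred 396 bp upstream of the start. Its fold of 3.81 equalled the lowest fold of the 8966 genes with a Chd8 peak at an end (percentile 5.17 of all Chd8 peaks), and its −log10 q was 1.81. No Chd7 or input peak lay at its start, and the Chd8 peak did not reach the promoter window. Rbbp7 and Jarid2 were the only members whose Chd8 peak at an end touched no input peak.

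Most Chd7 peaks of the members touched a Chd8 peak, as most did in the whole lists. All 10 of the replicate 1 peaks at member loci (79.0% of all replicate 1 peaks) and 8 of the 9 replicate 2 peaks (62.5% of all replicate 2 peaks) did so, the exception being a Jarid2 body peak (chr13:44783454-44783617, fold 3.43) that touched all 3 inputs. Of the 18 Chd8 peaks, 12 touched a Chd7 peak of either replicate (35.6% of all Chd8 peaks). The 6 that did not were those at the starts of Phf1, Jarid2 and Rbbp7 and 3 in the Jarid2 body. Of the 18 Chd8 peaks, 9 lay at the start, 8 in the body, 1 in a flank and 0 at the far end. The replicates of Chd7 differed: replicate 1 listed 5 members at an end (10.4% of all genes) and replicate 2 listed 4 (17.0% of all genes), with Eed and Suz12 in replicate 1 alone and Phf19 in replicate 2 alone. Over the locus, 5 members had a reproducible Chd7 region (8.45% of all genes) and 9 had a Chd8 peak (56.9% of all genes). Replicate 1 and replicate 2 alone listed 8 and 6 member loci (21.4% and 29.0% of all genes) after removal of peaks shared with mock. The Chd8 peaks nearest the 9 starts were centred a median of 118 bp away, between 72 and 527 bp, against a median of 145 bp over 7632 genes.

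Overlap with input at the member starts was common. Of the 9 Chd8 peaks at member ends, 7 touched a peak of input 3, which the labels match to Chd8, where 59.4% of the 8638 Chd8 peaks at any gene end did so. With peaks that touch the matching input removed, 2 members kept a Chd8 peak at an end (Jarid2 and Rbbp7; 16.7% of all genes) and 0 kept a reproducible Chd7 region there (1.75% of all genes). With a −log10 q of at least 5 required, 2 members (Mtf2 and Rbbp4; 8.28% of all genes) kept Chd8 and 0 kept Chd7, where 0% of all genes did. The Chd7 count of the members rests on peaks with a −log10 q between 1.90 and 2.99.

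Genes that work with or against PRC2 were counted in the same way. At an end, all genes gave 41.0% for Chd8 and 4.83% for Chd7. Of 5 other PRC2 partners, Lcorl (fold 6.42) and Lcor (4.09) had a Chd8 peak at an end and none had a reproducible Chd7 region. Genes of PRC1, the ubiquitin ligase complex that acts beside PRC2, had Chd8 at 16 of 27 ends, led by Pcgf2 (7.10), Pcgf1 (6.38) and Mga (5.98), and Chd7 at 1, Cbx8 (mean fold 4.23). The PR-DUB group, which removes the PRC1 mark, had Chd8 at 8 of 8, led by Ogt (8.90), Hcfc1 (6.38) and Asxl1 (5.71), and Chd7 at 1, Asxl2 (4.26). The genes listed with the demethylases of lysine 27, whatever the activity of each, had Chd8 at 2 of 3, Kdm6b (4.60) and Uty (3.93), and Chd7 at none. Kdm6a, named after its values were seen, had neither at a gene end but had both a Chd8 peak and a reproducible Chd7 region within 1 kb of an annotated start.

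Lysine 4 methylases and their core subunits, whose mark is found at active promoters, had Chd8 at 8 of 10 ends, with Rbbp5 at 11.4, Setd1a at 8.02 and Kmt2a at 6.59, and Chd7 at 1 (Setd1a, 4.03). Subunits of the BAF remodeler had Chd8 at 15 of 23, led by Smarcd2 (7.50), Smarcd1 (7.01) and Arid1a (6.92), and Chd7 at 4, led by Smarca2 (4.02), Arid1a (3.91) and Smarca4 (3.89). The 17 genes of complexes that also hold Rbbp4 or Rbbp7 had Chd8 at 13 ends, led by Mta2 (6.49), Gatad2b (5.89) and Mbd3 (5.49). They had Chd7 at 3, namely Mbd3 (4.67), Sin3a (4.31) and Mta2 (3.77). The PRC2 count of 9 of 10 for Chd8 thus stands among chromatin gene lists that mostly also lie above the 41.0% of all genes. For Chd7, PRC2 had 30.0% and the other chromatin lists had 0% to 17.6%, against 4.83% of all genes. No difference between lists was tested.

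**Figure D5:**
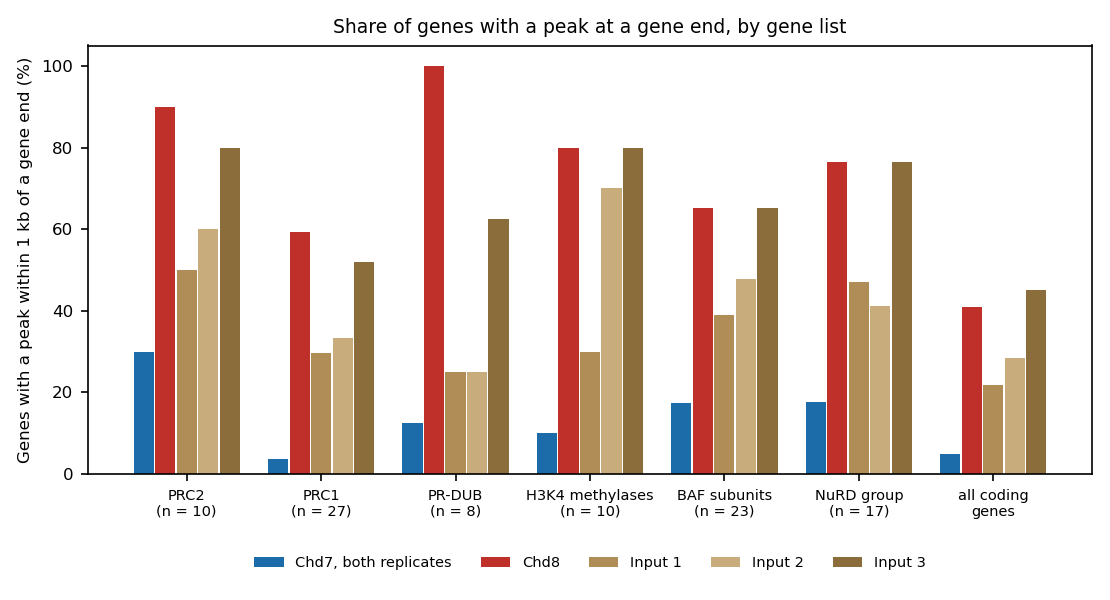
Share of genes with a peak at a gene end (y axis, %) in the PRC2 group, in 5 other lists of chromatin genes and in all protein-coding genes, with 1 bar each for reproducible Chd7 regions, Chd8 and the 3 inputs. The PRC2 bars are 30.0% for Chd7 and 90.0% for Chd8, and the input bars of the same genes reach 80.0%.

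The Chd7, Chd8, mock and input lists held 5282 and 6292, 18415, 89 and 98, and 109486, 178478 and 91628 peaks. As a check of the labelled cells, 5 of 6 oligodendrocyte lineage genes (Olig1, Olig2, Sox10, Pdgfra, Cspg4, Gpr17) had a Chd8 peak at an end (41.0% of all genes). A reproducible Chd7 region lay at an end of 1 (Gpr17, against 4.83% of all genes). Inputs 1, 2 and 3 had a peak at the ends of 0, 0 and 4 of these 6 genes, against 21.9%, 28.4% and 45.2% of all genes. Of the 3 with an annotated start in the promoter table, 2 had Chd8 within 1 kb of it and 0 had Chd7. Of 12 marker genes of microglia, endothelium, neurons and astrocytes, 1 had Chd8 at an end (Snap25) and 0 had Chd7. Inputs 1, 2 and 3 had a peak at the ends of 4, 2 and 5 of these 12, and Snap25 was among them in all 3 inputs. These counts are no measure of the purity of the cells. Read depth is unknown, and the extraction notes and the antibody labels differ on the antibody used for immunoprecipitation, as described with the processing.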

How the data were processed

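The data were the peak lists of 8 ChIP-seq libraries on mm10. Per the submitters' processing notes, the tools were MACS, Picard, SAMtools and Bowtie2. Their versions and settings and the control for peak calling were not given in the sources used here, and read depth is unknown. The deposited lists give a score per peak (10 times its −log10 q), a fold, which is a ratio to the background computed by the authors' caller, and a −log10 p and a −log10 q, also from the authors' caller. Folds of separate libraries were not set against each other, except that the folds of both Chd7 replicates were averaged to rank reproducible regions. A peak's value has no replicate error.

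ChIP peaks that overlapped a mock peak (1 bp or more) were left out of the counts, and every ChIP peak at a member locus was still described. Genes came from a RefSeq table of GRCm38.p6 without strand, and starts and strands from RefSeq promoters of the same build, which held all 10 members. Named were all members, their ChIP peaks, neighbours with an end within 1 kb of such a peak, and from each other list the 3 genes with the highest Chd8 fold and the 3 with the highest mean Chd7 fold at an end. The members, lists and motifs were chosen with earlier results of these data known. Overlap code was tested on simulated data. Python 3.11.15, pandas 2.3.3 and numpy 2.4.6 were used.

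Groups follow the titles. That replicates came from separate animals is not stated in the labels. Mock 2 is labelled as the control of both Chd7 replicate 2 and Chd8. Inside the files, the tracks of Chd7 replicate 2 and Chd8 are numbered 3 and 2, by which inputs 2 and 3 would exchange. The extraction notes name the O4 antibody for isolating the complexes, while the sample labels name anti-Chd7, anti-Chd8 and rabbit IgG. The sample labels were used, and the difference was not resolved. Alternatives were a −log10 q or a fold of at least 5, mock-touching peaks kept, input-touching peaks removed, other windows, a reciprocal overlap of 50% and each Chd7 library alone.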

Additional observations from a re-analysis of the deposited data

How the results depend on the processing

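The counts of members were 3 with Chd7 at an end, 9 with Chd8, 3 with both, 5 with Chd7 at the locus and 9 with Chd8 at the locus. In that order they were 0, 2, 0, 0 and 3 with a −log10 q of at least 5, and 0, 4, 0, 0 and 7 with a fold of at least 5. They were 0, 2, 0, 1 and 2 with peaks of the matching input removed, 0, 4, 0, 0 and 4 with inputs 2 and 3 exchanged, and 0, 2, 0, 0 and 2 with peaks of any input removed. Over all genes the shares with peaks of any input removed were 0.539%, 13.1%, 0.439%, 1.57% and 29.7%. A reciprocal overlap of 50% left Chd7 at 2 ends and 2 loci (Mtf2 and Ezh2). Shares of all genes at ends for the −log10 q and matching-input settings are given further above. For the fold, exchanged-input and reciprocal settings they are not given. They are also not given for the loci under the −log10 q and matching-input settings. Those counts describe the members alone, and a loss particular to PRC2 genes cannot be told from them. A fold of 5 lies above the median fold of every ChIP list (4.60 and 3.34 in Chd7 replicates 1 and 2, 4.47 in Chd8). Leaving out 1 Chd7 library gave 4 to 5 members with Chd7 at an end, 4 to 5 with both and 6 to 8 with Chd7 at the locus. Over all genes, replicate 1 alone gave 10.4% at ends and 21.4% at loci, and replicate 2 alone gave 17.0% and 29.0%. Eed and Suz12 joined the ends without replicate 2, Phf19 did without replicate 1, and Jarid2 joined the loci with each library alone. Counts stayed within 1.5 times of the first values when mock-touching peaks were kept, with a 5-kb window, with the gene body alone and with starts alone. Fewer peaks entered under every stricter setting, and no other cause was tested. No paired analysis was possible because no result comes from a test and Chd8 has 1 library. Depth is unknown, so binding below the listing threshold and an absence of binding cannot be told apart.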
